A study of Mus musculus with 20 samples.

Results

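The genes described here make, conjugate, move and sense bile acids in the hepatocyte. They were chosen by symbol, ignoring case, as 10 genes listed in both TPM tables of the series: CYP7A1, CYP8B1, CYP27A1 and CYP7B1 (synthesis), SLC27A5 and BAAT (conjugation), NR1H4 and NR0B2 (sensing), and ABCB11 and SLC10A1 (transport). They are 10 of the 60607 human genes and, as mouse genes, 10 of the 55335 genes in the respective tables. TPM is a transcript level corrected for gene length and set so that each library adds up to 1000000.

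Livers came from 20 mice in 4 groups. Humanized mice were TK-NOG mice, a highly immune-deficient NOG strain with a herpes simplex thymidine kinase transgene under the mouse albumin promoter. At 8 to 9 weeks of age they received ganciclovir at 25 mg/kg, which the kinase turns into a toxin in the cells that carry it, and then primary human hepatocytes through the spleen. Mice with over 0.5 mg/ml of human albumin in serum, measured 8 to 12 weeks after the transplant, were used. They therefore kept mouse non-parenchymal cells, and their table lists human genes only. WT mice were male C57BL/6 bought at 8 weeks of age and kept for 10 to 14 days. Both kinds of mice received an adenovirus at 2000000000 pfu per mouse, carrying an shRNA against HuR (HuR KD, 4 humanized and 6 WT mice) or a control LacZ virus (4 humanized and 6 WT mice). Livers were taken on day 7 after a fast of 4 h. Whether humanized mice shared a hepatocyte donor is not given in the sources used here, so p-values measure the spread between these livers.

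Bile acids are made from cholesterol. The classic pathway starts with 7α-hydroxylation by CYP7A1, its rate-limiting enzyme, and CYP8B1 adds the 12α-hydroxyl group that gives cholic acid. The alternative pathway starts with CYP27A1, a mitochondrial enzyme that hydroxylates the sterol side chain, followed by CYP7B1. SLC27A5 activates bile acids to CoA esters and BAAT joins them to taurine or glycine, ABCB11 pumps the conjugates into the canaliculus, and SLC10A1 takes them back up from blood. NR1H4 encodes FXR, the nuclear receptor for bile acids, and NR0B2 encodes SHP, an FXR target that represses CYP7A1. HuR is an RNA-binding protein that binds U-rich and AU-rich stretches, often in 3′ UTRs, and can stabilise mRNAs.

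Because HuR is known for such stretches, the pentamer ATTTA was counted in the 3′ UTRs of the mouse members, without the stop codon, on GENCODE M21 (GRCm38), with 1 principal transcript per gene. Cyp7a1 held 9 in 2600 bases, and 13.2% of the 1336 UTRs of tested genes within 20% of its length held as many. Cyp27a1 held 2 in 233 bases (8.21% of 755 UTRs of like length) and Cyp7b1 held 2 in 507 bases (22.5% of 1147). Nr1h4 and Abcb11 held 1 each, and Cyp8b1, Baat, Slc27a5, Nr0b2 and Slc10a1 held 0. The 30-base windows below carry the most copies that fit in 1 window for the members with 2 or more, shown with ATTTA in capitals, since these are the members where a stretch of this kind is present more than once. They are matches of letters, and binding was not measured.
Cyp7a1, chr4:6266965-6266994, minus strand, bases 1218 to 1247 of the UTR: atatATTTAtatataaattatATTTAtctt
Cyp27a1, chr1:74737861-74737890, plus strand, bases 202 to 231 of the UTR: gggtatgATTTAaaataaaATTTAaaattc
Cyp7b1, chr3:18072337-18072366, minus strand, bases 91 to 120 of the UTR: ttgaaaatggcaaATTTAtatttggttgag

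Depth, recovered as whole reads from the steps of the TPM, ranged from 2670469 to 20302454 reads in humanized livers and from 12960373 to 44668272 in WT livers, except for WT LacZ 2 with 1423985. HuR mRNA was at 61.0% of LacZ in humanized livers (ELAVL1, log2 fold change −0.59, standard error 0.17) and at 51.7% in WT livers (Elavl1, −0.83, standard error 0.09). The groups did not overlap for HuR in either set (two-sided exact permutation test over livers, p = 0.0286 and 0.00216, the smallest that these group sizes allow), which held for 7.16% of the human and 2.49% of the mouse genes tested. The 8 hepatocyte markers checked added up to 48600 to 97400 TPM in humanized and 91900 to 108000 TPM in WT livers. Among the humanized livers, HuR KD 4 and LacZ 2 stood apart. They were the deepest libraries, mitochondrial rRNA took 49.1% of the TPM in each against 27.2 to 36.1% in the other 6, and their levels over all genes correlated best with each other (Spearman's rho across genes 0.947). Fold changes of the members in humanized livers are therefore also given without these 2 libraries, and that of ELAVL1 was then −0.71.

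Levels of each gene were compared between HuR KD and LacZ with limma on log2(TPM + 1), fitted over every gene whose mean was 1 TPM or more. A gene is called, and written of as higher or lower, where its p before adjustment is under 0.05. Each p printed for limma is Benjamini-Hochberg adjusted over all genes of the fit. A fold change here is a difference on that scale and understates changes of low genes. All 10 members passed the filter in both sets. In humanized livers 2 of 10 members were called, SLC27A5 higher and CYP7B1 lower, where 11.5% of the 12738 genes tested were called (3.6% higher and 7.87% lower). Over all these genes 458 were called higher and 1003 lower as deposited, and 791 and 876 when the libraries were scaled by median-of-ratios factors, which kept SLC27A5 and lost CYP7B1. In WT livers 2 of 10 were called, Cyp8b1 higher and Cyp27a1 lower, where 16% of 15090 genes were called (9.09% higher and 6.94% lower). After adjustment 0 of 10 members passed in either set, against 0.212% of the human and 0.888% of the mouse genes. With voom on the recovered reads, SLC27A5 (adjusted p = 0.039) and Cyp8b1 (adjusted p = 0.0289) passed it. The median log2 fold change of the members was −0.05 in both sets, against −0.05 over all genes tested in humanized and 0.03 in WT livers.

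**Figure D1:**
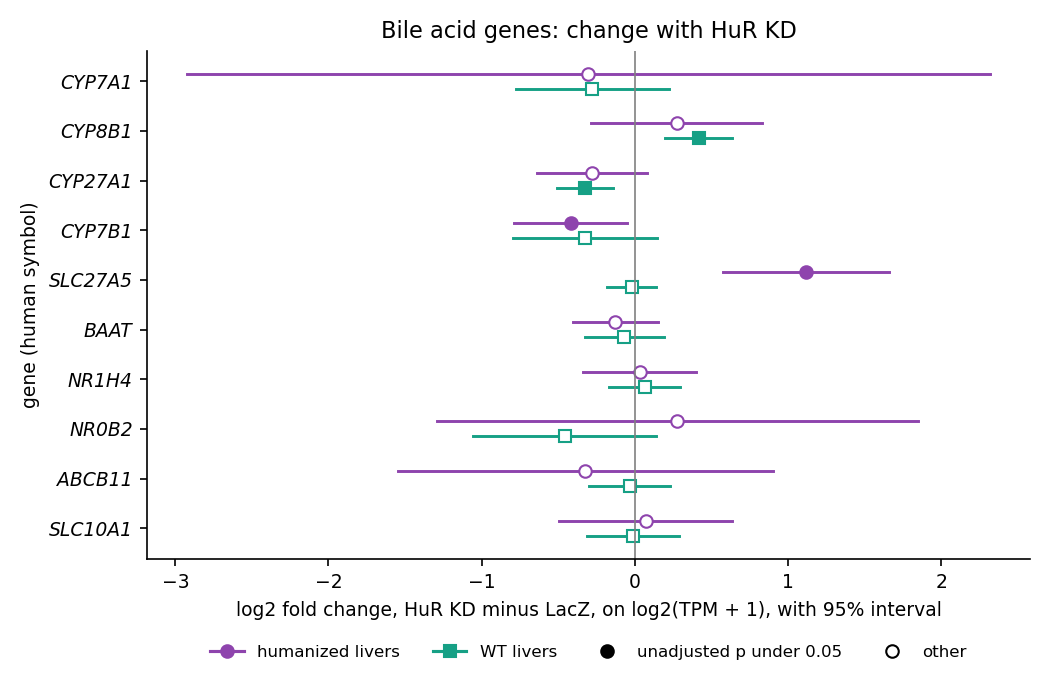
Log2 fold changes of the 10 genes with HuR KD (HuR KD minus LacZ on log2(TPM + 1), limma, bars give the 95% interval) in 4 against 4 humanized livers (circles) and 6 against 6 WT livers (squares). Filled symbols mark an unadjusted p under 0.05: SLC27A5 at 1.12 stands clear of 0 in humanized livers and at −0.02 in WT livers, and the interval of CYP7A1 in humanized livers runs from −2.92 to 2.32.

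CYP7A1 (ENSG00000167910.4) set the widest spread of the members in humanized livers. Its level was 353, 241, 225 and 18.0 TPM in HuR KD livers 1 to 4 and 353, 17.5, 304 and 425 TPM in LacZ livers 1 to 4. The 2 values near 18 TPM are those of HuR KD 4 and LacZ 2, and the groups overlapped over nearly their whole range. The log2 fold change was −0.30 (standard error 1.16, adjusted p = 0.954 in limma). Without these 2 livers CYP7A1 was at −0.42 (adjusted p = 0.401). It turned to 0.65 without HuR KD 4 alone, to 0.05 without LacZ 1 and to 0.14 without LacZ 4, and was −1.37 without LacZ 2 alone.

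Mouse Cyp7a1 (chr4:6265612-6275633, minus strand, 6 exons) ranged from 143 to 383 TPM (median 247) with HuR KD and from 188 to 355 TPM (median 310) with LacZ in WT livers. The groups overlapped. While 2 HuR KD livers, at 143 and 170 TPM, lay below every LacZ liver, HuR KD 4, at 383 TPM, lay above every LacZ liver. The log2 fold change was −0.28 with a 95% interval from −0.78 to 0.22 (adjusted p = 0.611), which holds no change as well as a moderate fall.

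CYP8B1, the 12α-hydroxylase, was at 62.2, 56.1, 95.6 and 91.5 TPM in humanized HuR KD livers and at 45.7, 90.5, 56.3 and 60.5 TPM in LacZ livers. The highest LacZ value was again that of LacZ 2, and the groups overlapped. The difference was 0.27 on the log2 scale (95% interval −0.28 to 0.83, adjusted p = 0.733), and 0.36 without the 2 livers that stood apart (adjusted p = 0.504).

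In WT livers Cyp8b1 (ENSMUSG00000050445.4, chr9:121914356-121916305, minus strand, a gene of 1 exon) was the member with the smallest p. Its level ranged from 1902 to 2616 TPM (median 2245) with HuR KD and from 1517 to 2027 TPM (median 1607) with LacZ. All but 1 of the LacZ livers lay below all HuR KD livers, the exception being LacZ 5. The mean was 2249 ± 282 TPM against 1682 ± 199 TPM (SD, n = 6 each), 134% of LacZ. The difference was 0.42 on the log2 scale, with a standard error of 0.10 (adjusted p = 0.072 in limma). A two-sided exact permutation test over the 924 groupings gave p = 0.00649. The call held under every alternative that was run, at 0.37 to 0.47, and the adjusted p ranged from 0.0223 to 0.187 over those that keep all livers.

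CYP27A1 was at 172, 157, 179 and 184 TPM in humanized HuR KD livers and at 199, 162, 250 and 238 TPM in LacZ livers. LacZ 2 alone reached into the range of the HuR KD livers. For CYP27A1 the log2 fold change was −0.28 (standard error 0.16, adjusted p = 0.554 in limma). It was called without LacZ 2 (−0.40, adjusted p = 0.211) and without both livers that stood apart (−0.43, adjusted p = 0.203), where 15.7% of all genes were called.

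Cyp27a1 (ENSMUSG00000026170.6, chr1:74713574-74737892, plus strand, 9 exons) ranged from 387 to 521 TPM (median 450) with HuR KD and from 500 to 638 TPM (median 558) with LacZ in WT livers. The groups overlapped through HuR KD 6, at 521 TPM, and LacZ 4, at 500 TPM. The mean was 451 ± 46.7 TPM against 564 ± 51.6 TPM (SD, n = 6 each), 79.9% of LacZ. Its log2 fold change was −0.33, with a standard error of 0.08 (adjusted p = 0.083 in limma). The exact permutation test gave p = 0.00433, and the call held under every alternative run, at −0.37 to −0.28. The change of CYP27A1 did not differ detectably between the sets, with an interaction of 0.05 (humanized minus WT, standard error 0.17, adjusted p = 0.919) when both sets were fitted together.

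CYP7B1, the oxysterol 7α-hydroxylase, was the lowest member of the human set. It was at 9.78, 6.62, 8.27 and 11.1 TPM in HuR KD livers and at 12.9, 11.2, 12.7 and 11.7 TPM in LacZ livers, from 103 to 931 reads per library. The groups did not overlap, which held for 7.16% of the human genes tested, but HuR KD 4, at 11.13 TPM, lay just under LacZ 2, at 11.23 TPM. CYP7B1 changed by −0.42 on the log2 scale, with a standard error of 0.16 (adjusted p = 0.369 in limma, exact permutation p = 0.0286). The call was lost when the libraries were scaled by median-of-ratios factors (−0.35, adjusted p = 0.407), and without HuR KD 2 (−0.30), HuR KD 3 (−0.39), LacZ 1 (−0.39) or LacZ 3 (−0.40). Without the 2 livers that stood apart it held, at −0.56 (adjusted p = 0.182).

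Cyp7b1 ranged from 102 to 234 TPM (median 136) with HuR KD and from 128 to 239 TPM (median 176) with LacZ in WT livers. The groups overlapped over most of their range. Cyp7b1 differed by −0.33 on the log2 scale, with an interval from −0.80 to 0.14 (adjusted p = 0.509). An snRNA gene of the same strand, Gm23686, overlaps Cyp7b1 in GENCODE M21, and its part in these values was not tested.

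SLC27A5 (ENSG00000083807.10), the bile acyl-CoA synthetase of the conjugation step, showed the largest difference of any member. Its level was 91.3, 89.0, 109 and 101 TPM in humanized HuR KD livers and 26.6, 65.0, 46.1 and 47.7 TPM in LacZ livers. Every HuR KD liver lay above every LacZ liver, and the lowest value was that of LacZ 1. The groups did not overlap for 7.16% of the human genes tested. The mean was 97.5 ± 9.17 TPM against 46.3 ± 15.7 TPM (SD, n = 4 each), 210% of LacZ, a log2 fold change of 1.12 (standard error 0.24, 95% interval 0.58 to 1.66, adjusted p = 0.104 in limma). The exact permutation test over the 70 groupings gave p = 0.0286, the smallest it can give. The difference was 1.28 without HuR KD 4 and LacZ 2 (adjusted p = 0.0504) and between 0.88 and 1.3 with each liver left out in turn, lowest without LacZ 1.

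Mouse Slc27a5 (chr7:12988346-12998192, minus strand, 10 exons) did not share this difference. It ranged from 663 to 901 TPM (median 770) with HuR KD and from 746 to 849 TPM (median 780) with LacZ in WT livers. The log2 fold change was −0.02 with a narrow interval, from −0.18 to 0.14. In the joint fit over 8192 genes paired by symbol, the change of SLC27A5 in humanized livers exceeded that in WT livers by 1.14 (standard error 0.22, adjusted p = 0.00428). That fit shared 1 variance per gene between the sets, while fitted apart the standard error was 0.24 in humanized and 0.07 in WT livers. The p may therefore be too small. SLC27A5 was the only member called in that fit, as 1 of 10 where 19.7% of pairs passed the unadjusted and 4.99% the adjusted threshold. The difference was 1.31 without the 2 humanized livers (adjusted p = 0.00032). Host, shRNA sequence, read length and species all differ between the sets and cannot be told apart.

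BAAT, the enzyme that follows SLC27A5, was called in neither set. It was at 82.7, 82.3, 96.9 and 94.9 TPM in humanized HuR KD livers and at 92.5, 97.1, 92.9 and 107 TPM in LacZ livers, a log2 fold change of −0.13 (95% interval −0.40 to 0.15) and of −0.16 without HuR KD 4 and LacZ 2. In WT livers Baat ranged from 314 to 505 TPM (median 438) with HuR KD and from 335 to 483 TPM (median 456) with LacZ, a log2 fold change of −0.07 (95% interval −0.33 to 0.19). The lowest liver of each WT group was its shallowest library, HuR KD 6 and LacZ 2.

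**Figure D2:**
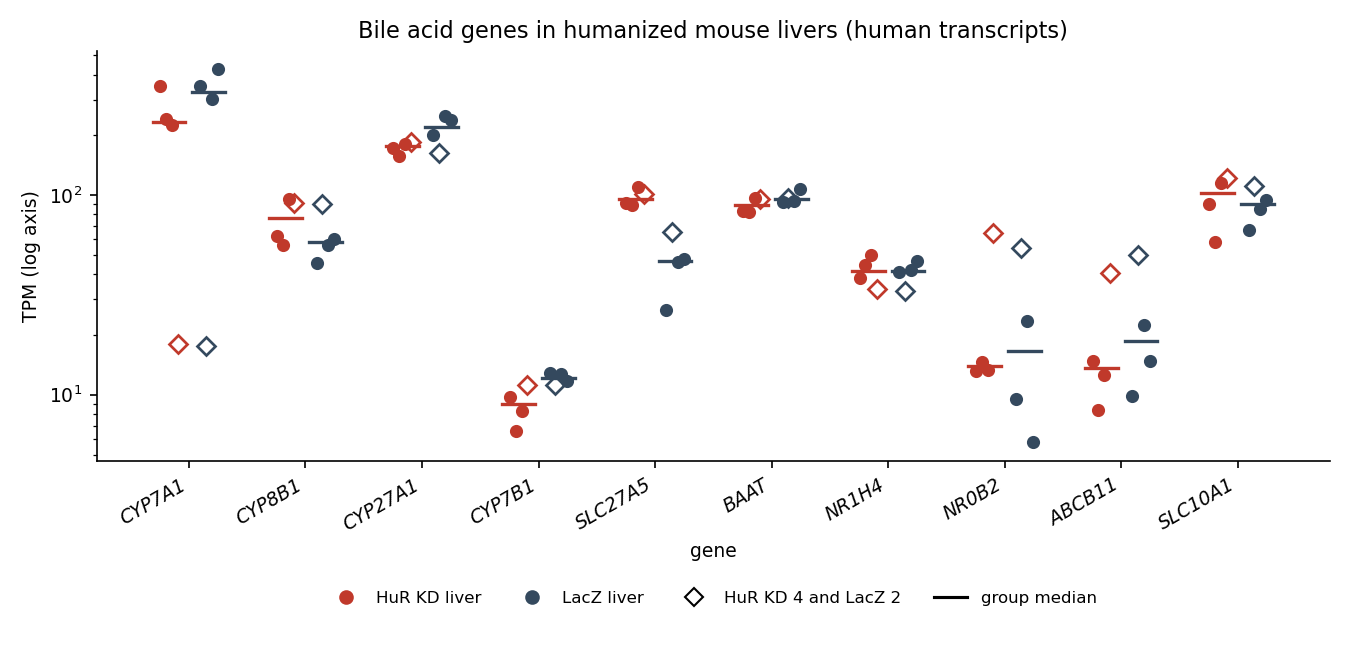
Level of each human member in TPM (log axis) in the 4 HuR KD (red) and 4 LacZ (dark) humanized livers, with group medians as lines. The open diamonds are HuR KD 4 and LacZ 2, which sit near 18 TPM for CYP7A1 and above the other 6 livers for NR0B2 and ABCB11, and SLC27A5 shows no overlap of the groups.

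NR1H4, the bile acid receptor FXR, was at 38.3, 44.5, 50.1 and 34.0 TPM in humanized HuR KD livers and at 41.0, 33.0, 41.9 and 46.8 TPM in LacZ livers. Its 2 lowest values were those of HuR KD 4 and LacZ 2. NR1H4 differed by 0.03 on the log2 scale (95% interval −0.34 to 0.40), and also by 0.03 without them. In WT livers Nr1h4 ranged from 130 to 186 TPM (median 165) with HuR KD and from 117 to 176 TPM (median 162) with LacZ, a log2 fold change of 0.06 (95% interval −0.17 to 0.29).

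NR0B2, the repressor SHP, was at 13.2, 14.6, 13.3 and 64.3 TPM in humanized HuR KD livers and at 9.49, 54.0, 23.4 and 5.79 TPM in LacZ livers. The high values were again HuR KD 4 and LacZ 2, with 831 and 691 reads, while the other 6 libraries held 11 to 101 reads. NR0B2 had a log2 fold change of 0.28, with an interval from −1.29 to 1.85, and of 0.29 without the 2 livers (adjusted p = 0.794). It turned to −0.26 without HuR KD 4 alone and to −0.18 without LacZ 4, and was 0.83 without LacZ 2 alone.

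In WT livers Nr0b2 ranged from 13.9 to 35.1 TPM (median 29.9) with HuR KD and from 20.2 to 62.9 TPM (median 39.9) with LacZ. The groups overlapped, and 4 LacZ livers, at 38.0, 41.8, 49.4 and 62.9 TPM, lay above every HuR KD liver. For Nr0b2 the log2 fold change was −0.46 (95% interval −1.05 to 0.14, adjusted p = 0.46). It was called without LacZ 4, the lowest control (−0.63, adjusted p = 0.278).

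ABCB11, the canalicular bile salt export pump, was at 14.8, 8.35, 12.5 and 40.7 TPM in humanized HuR KD livers and at 9.90, 50.0, 22.3 and 14.7 TPM in LacZ livers. It shared its 2 highest livers with NR0B2. For ABCB11 the log2 fold change was −0.32 (95% interval −1.54 to 0.90), −0.33 without these 2 livers (adjusted p = 0.653) and 0.10 without LacZ 2 alone. In WT livers Abcb11 ranged from 176 to 209 TPM (median 197) with HuR KD and from 140 to 245 TPM (median 217) with LacZ, a log2 fold change of −0.03 (95% interval −0.30 to 0.23). An antisense gene and a processed pseudogene of the opposite strand overlap mouse Abcb11 in GENCODE M21, and the libraries were made to keep strand.

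SLC10A1, the sodium-dependent uptake carrier NTCP, was at 89.7, 57.8, 114 and 121 TPM in humanized HuR KD livers and at 66.8, 110, 85.3 and 94.0 TPM in LacZ livers. The groups overlapped, with a log2 fold change of 0.07 (95% interval −0.49 to 0.63), or 0.05 without HuR KD 4 and LacZ 2. In WT livers Slc10a1 ranged from 434 to 737 TPM (median 517) with HuR KD and from 452 to 678 TPM (median 557) with LacZ, a log2 fold change of −0.01 (95% interval −0.31 to 0.29).

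**Figure D3:**
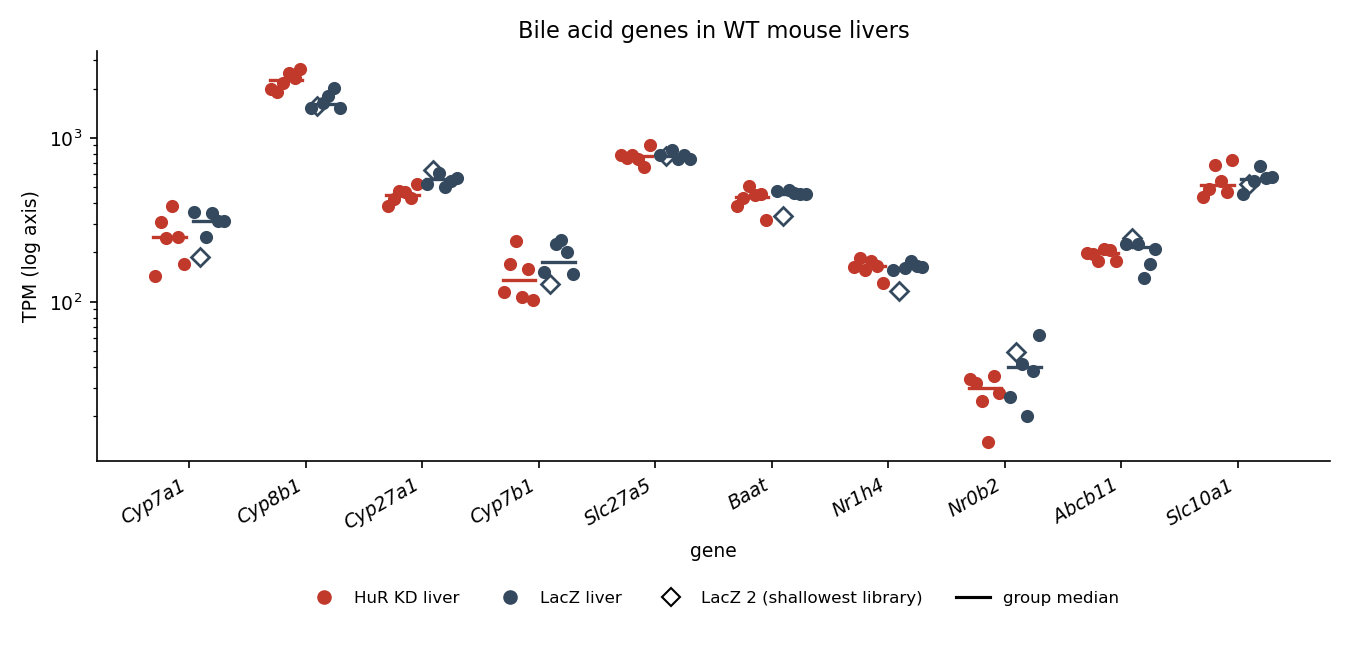
Level of each mouse member in TPM (log axis) in the 6 HuR KD (red) and 6 LacZ (dark) WT livers, with group medians as lines and the shallowest library, LacZ 2, as open diamonds. The groups overlap for every gene, with Cyp8b1 mostly higher and Cyp27a1 mostly lower with HuR KD.

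The 2 livers that stood apart were alike in most of the members named so far, although 1 had received the HuR virus and 1 the control virus. CYP7A1 was at 18.0 and 17.5 TPM in HuR KD 4 and LacZ 2 and at 225 to 425 TPM in the other 6 livers. NR0B2 was at 64.3 and 54.0 TPM against 5.79 to 23.4 TPM, and ABCB11 at 40.7 and 50.0 TPM against 8.35 to 22.3 TPM. NR1H4 was slightly lower, at 34.0 and 33.0 TPM against 38.3 to 50.1 TPM. For the other 6 members at least 1 of the 2 livers lay inside the range of the rest. Thus 2 of 10 members lay above and 2 below the range of the other livers, where 7.14% and 13.2% of all genes tested did. The 2 livers were singled out in these data, so no test is given.

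The genes around the members were looked at in the same livers and were chosen after their values were seen. SLC51A and SLC51B, the paired subunits of the basolateral bile acid exporter and FXR targets, were at 37.0 and 30.5 TPM and at 15.6 and 32.9 TPM in HuR KD 4 and LacZ 2, against 10.8 to 23.5 and 3.98 to 10.5 TPM in the other 6. ABCC3 and ABCC4, the other basolateral exporters, lay below the rest, at 20 and 24.1 TPM against 24.9 to 36.3 TPM and at 2.29 and 2.40 TPM against 2.41 to 5.33 TPM. FGF19, the hormone that FXR induces, did not pass the filter and was at 0.891 and 1.45 TPM (18 and 29 reads) against 0 to 0.266 TPM, that is 0 or 1 read in each other liver. KLB, the coreceptor for FGF19, was lower in both, at 11.1 and 11.9 TPM against 26.8 to 35.7 TPM. PPARGC1A, a transcriptional coactivator induced by fasting, was at 25.7 and 33.0 TPM against 1.43 to 3.51 TPM. Not every FXR target looked at lay above the rest. MAFG, also an FXR target, lay inside their range, at 4.63 and 3.75 TPM against 2.87 to 4.68 TPM. FXR activity was not tested.

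Genes of cholesterol supply also lay outside the range of the other livers. SQLE, an enzyme of cholesterol synthesis, was at 11.4 and 15.7 TPM against 49.8 to 103 TPM. INSIG1, a retention factor for the sterol sensor, was higher, at 308 and 292 TPM against 75.6 to 216 TPM. Over the related genes tested, 6 of 48 lay above and 16 of 48 below the range of the other livers in both, where 7.14% and 13.2% of all genes did. Depth and the share of mitochondrial rRNA were highest in these same 2 libraries, and their part in these values was not tested.

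**Figure D4:**
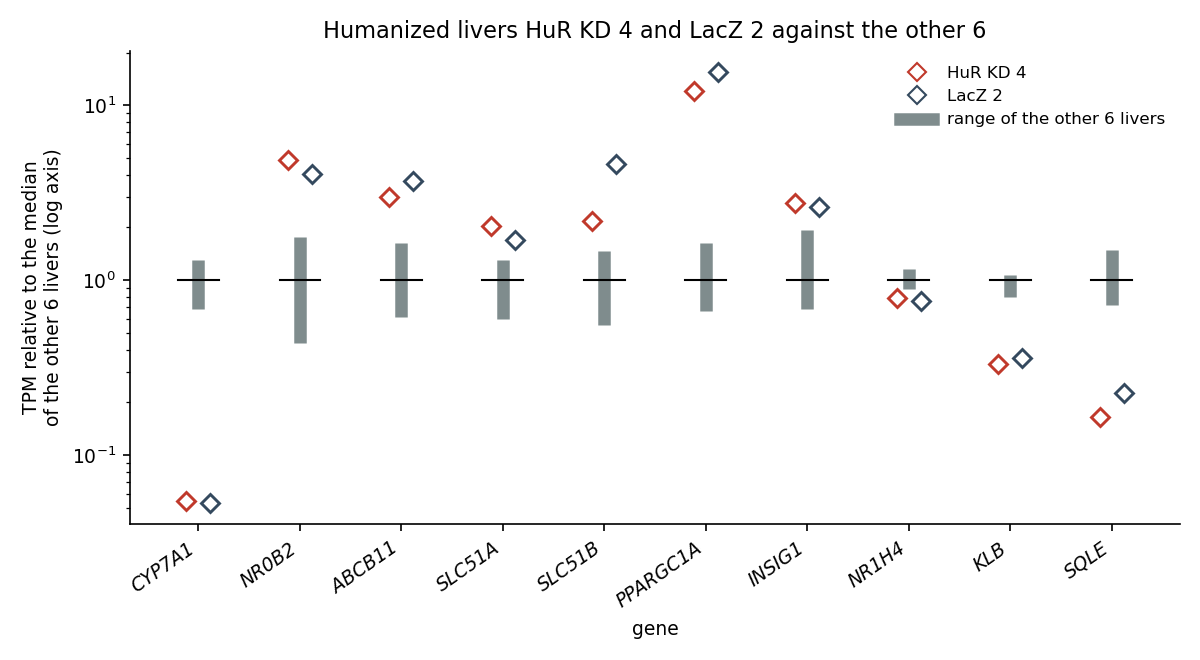
TPM of 10 genes in humanized livers HuR KD 4 (red diamonds) and LacZ 2 (dark diamonds), divided by the median of the other 6 livers, on a log axis, with the range of those 6 livers as a grey bar. CYP7A1, KLB and SQLE lie below the bar in both livers, NR0B2, ABCB11, SLC51A, SLC51B, PPARGC1A and INSIG1 lie above it, NR1H4 lies just below it, and the 2 livers sit close together for most genes although their viruses differed.

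The control levels of the members ranked differently in the human and mouse tables. By the median of the LacZ livers, the human order was CYP7A1, CYP27A1, BAAT, SLC10A1, CYP8B1, SLC27A5, NR1H4, ABCB11, NR0B2 and CYP7B1. Neighbours in this order overlapped in their ranges, except that CYP27A1, at 162 to 250 TPM, lay above BAAT, at 92.5 to 107 TPM. Without LacZ 2, CYP7A1, at 304 to 425 TPM, also lay above CYP27A1, at 199 to 250 TPM, SLC10A1 lay above CYP8B1 and NR1H4 above ABCB11, and NR0B2 and CYP7B1 changed places. The mouse order was Cyp8b1, Slc27a5, Cyp27a1, Slc10a1, Baat, Cyp7a1, Abcb11, Cyp7b1, Nr1h4 and Nr0b2. Here Cyp8b1 lay above Slc27a5, Slc27a5 above Cyp27a1, and Nr1h4 above Nr0b2 without overlap, and the other neighbours overlapped.

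Protein-coding genes took 28.9 to 37.8% of the TPM in humanized and 75.5 to 77.6% in WT livers, so levels were also set per 1000000 TPM of protein-coding genes. Mitochondrial genes took 29 to 51.8% of the TPM in humanized and 0% in WT livers. The protein-coding total of that scale can therefore hold mitochondrial mRNAs in humanized livers only. On this scale CYP8B1 was at 139 to 310 (median 166) in the 4 humanized LacZ livers and at 1956 to 2616 (median 2109) in the 6 WT LacZ livers. SLC27A5 was at 80.9 to 222 against 963 to 1108 in mouse, and CYP7B1 at 30.9 to 39.2 against 170 to 311. BAAT, SLC10A1, NR1H4 and ABCB11 also lay lower in the human than in the mouse livers without overlap, which makes 7 of 10 members. The share over all genes paired by symbol was not computed, so this count is not read as particular to the members. ABCB11 came nearest, at 30.1 to 171 against 181 to 324, and whether it stays apart without mitochondrial genes in the total was not tested. The ranges of NR0B2 (15.3 to 185 and 26.3 to 81.1) and CYP27A1 (555 to 758 and 650 to 843) overlapped. The range of CYP7A1, 60 to 1124 in human and 249 to 463 in mouse, overlapped through LacZ 2 alone. Without that liver CYP7A1 was at 924 to 1124, above all mouse livers, while the other 9 members stayed on the same side or overlapped as before. These are levels of 2 tables normalized separately, from different hosts, and are given side by side without a test.

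Correlation between members was computed within the groups. Over the 12 WT livers, after taking out the group means, 6 of 45 pairs of members had a permutation p under 0.05 for Pearson's r, and 0 of 45 after adjustment over the pairs. The smallest p was that of Abcb11 and Slc10a1 (r = −0.62, p = 0.00511, adjusted p = 0.177, rho = −0.57, p = 0.0279, r = −0.59 without the 2 farthest livers, permutation test with 100000 resamples). Without WT LacZ 2, the shallowest library, 1 pair remained under 0.05 and 0 after adjustment. Over the 6 humanized livers without HuR KD 4 and LacZ 2, an exact permutation gave 3 pairs under 0.05 and 0 after adjustment. With a smallest possible p of 0.0278 for 6 livers, this says little about how closely the members vary together there, and no correlation over all 8 is given because these livers fall into separate clusters.

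Other genes of bile acid metabolism were grouped by role in 9 lists. In humanized livers 48 of the 56 genes passed the filter, 7 were called higher and 2 lower with HuR KD, and 0 passed adjustment, where 3.6% of all genes were called higher and 7.87% lower. The median log2 fold change was 0.03, against −0.05 over all genes tested. In WT livers 50 of 57 passed the filter, 4 were called higher and 10 lower, and 2 passed adjustment, where 9.09% of all genes were called higher and 6.94% lower. The median was −0.03, against 0.03 over all genes.

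The peroxisomal enzymes that shorten the sterol side chain were the list with most calls in humanized livers, with 4 of 7 higher, where 3.6% of all genes were, and a median of 0.37. SLC27A2, an acyl-CoA synthetase, was at 270 to 378 TPM with HuR KD and 159 to 246 TPM with LacZ (log2 fold change 0.62, adjusted p = 0.252 in limma). ACOX2, the branched-chain oxidase, was at 49.5 to 69.9 against 35.4 to 48.0 TPM (0.43, adjusted p = 0.344), and ACOT8, a thioesterase, at 3.23 to 5.01 against 2.39 to 3.33 TPM (0.43, adjusted p = 0.368). HSD17B4, the bifunctional enzyme, named after its value was seen, was the other one called (0.37, adjusted p = 0.395). In WT livers 1 of 8 was higher and 1 lower, where 9.09% and 6.94% of all genes were, with a median of −0.01. Mouse Acox2 was lower, at 159 to 205 against 189 to 231 TPM (−0.21, adjusted p = 0.194), and Acot8 higher, at 30.1 to 41.8 against 27.6 to 32.3 TPM (0.19, adjusted p = 0.246). The call of ACOX2 in humanized livers was lost without HuR KD 1, HuR KD 3 or LacZ 2, and those of ACOT8 and Acot8 in 6 alternatives each. Without HuR KD 4 and LacZ 2 the values were 0.62 for SLC27A2, 0.41 for ACOX2 and 0.48 for ACOT8. In the joint fit, the change in humanized livers exceeded that in WT livers by 0.71 for SLC27A2 and 0.64 for ACOX2 (adjusted p = 0.0218 and 0.0217 of limma), and by 0.24 for ACOT8 (adjusted p = 0.427). These p-values too rest on a variance shared by both sets.

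Of the canalicular exporters 4 of 6 were called lower in WT livers, where 6.94% of all genes were, with a median of −0.35. Abcg5, which with Abcg8 forms the sterol exporter, was at 40.7 to 59.6 TPM with HuR KD and 59.8 to 76.9 TPM with LacZ (−0.44, adjusted p = 0.0528 in limma). Its groups did not overlap, which held for 2.49% of the mouse genes tested. Abcc2, the exporter of conjugated anions, was at 159 to 214 against 207 to 269 TPM (−0.34, adjusted p = 0.0682), and Abcg2 at 24.7 to 40.4 against 39.3 to 51.2 TPM (−0.41, adjusted p = 0.0999). Abcg8, named after its value was seen, was the other one (−0.37, adjusted p = 0.151). In humanized livers ABCC2 was the 1 of 6 called, where 11.5% of all genes were. It was lower, at 64.9 to 94.7 against 79.7 to 179 TPM (−0.55, adjusted p = 0.425). The call was lost in 12 of 20 alternatives but held without HuR KD 4 and LacZ 2 (−0.64). Abcb11, the member of this step, was not among the genes called in either set.

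Of the classic pathway enzymes, Akr1c6, an aldo-keto reductase, was lower in WT livers, at 315 to 515 against 492 to 861 TPM (−0.77, adjusted p = 0.0454 in limma). It was 1 of 3, where 6.94% of all genes were called lower. In humanized livers 0 of 3 were called, where 11.5% of all genes were, and HSD3B7, which follows CYP7A1, had the smallest p (−0.40, adjusted p = 0.49). CYP39A1, an oxysterol hydroxylase of the alternative pathway, was lower in humanized livers, at 15.4 to 22.1 against 20.3 to 44.5 TPM (−0.82, adjusted p = 0.252). It was −1.13 without HuR KD 4 and LacZ 2 (adjusted p = 0.0304). Mouse Cyp39a1 was at 4.75 to 14.1 against 7.09 to 20.9 TPM (−0.49, adjusted p = 0.433).

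Among the regulators, NR1I3, the constitutive androstane receptor, moved in opposite directions in the 2 sets. It was higher in humanized livers, at 23.5 to 27.6 TPM with HuR KD and 14.1 to 20 TPM with LacZ (0.62, adjusted p = 0.139 in limma). Mouse Nr1i3 was lower in WT livers, at 124 to 169 against 161 to 291 TPM (−0.63, adjusted p = 0.0454). RXRA, the common partner of these receptors, was higher in humanized livers, at 27.7 to 31.5 against 19.0 to 22.5 TPM (0.46, adjusted p = 0.161), without overlap, as were 7.16% of all genes. NR1I3 and RXRA were the 2 of 11 regulators called there, where 11.5% of all genes were called (3.6% higher). In WT livers 2 of 11 were higher and 2 lower, where 9.09% and 6.94% of all genes were. Among them were Mafg, an FXR target that represses Cyp8b1, at 20.9 to 30.2 against 29.0 to 33.8 TPM (−0.28, adjusted p = 0.113), and Nr1i2, the pregnane X receptor, at 94.4 to 119 against 81.1 to 105 TPM (0.18, adjusted p = 0.276). The calls of NR1I3 held in all alternatives of both sets, and without HuR KD 4 and LacZ 2 NR1I3 was at 0.665 and RXRA at 0.495. Its change in humanized livers exceeded that in WT livers by 1.25 (standard error 0.20, adjusted p = 0.00114 in the joint fit).

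Of the uptake carriers, SLCO2B1 was higher in humanized livers, at 30.5 to 38.2 against 22.4 to 32.1 TPM (0.49, adjusted p = 0.264 in limma, and 0.57 without HuR KD 4 and LacZ 2), and Slco1b2, which takes up unconjugated bile acids, was lower in WT livers, at 494 to 732 against 691 to 958 TPM (−0.38, adjusted p = 0.0999). Cyp3a11, which hydroxylates bile acids for disposal, was lower in WT livers, at 1790 to 2920 against 2420 to 4110 TPM (−0.47, adjusted p = 0.154), and SULT2A1, the bile acid sulfotransferase, was at 472 to 592 against 357 to 469 TPM in humanized livers (0.32, adjusted p = 0.445). No basolateral exporter was called in either set, with the smallest p for ABCC3 (−0.23, adjusted p = 0.684) and Abcc3 (0.07, adjusted p = 0.762). Of the genes of cholesterol supply tested in humanized livers, SCARB1, a lipoprotein receptor, had the smallest p (0.34, adjusted p = 0.643).

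**Figure D5:**
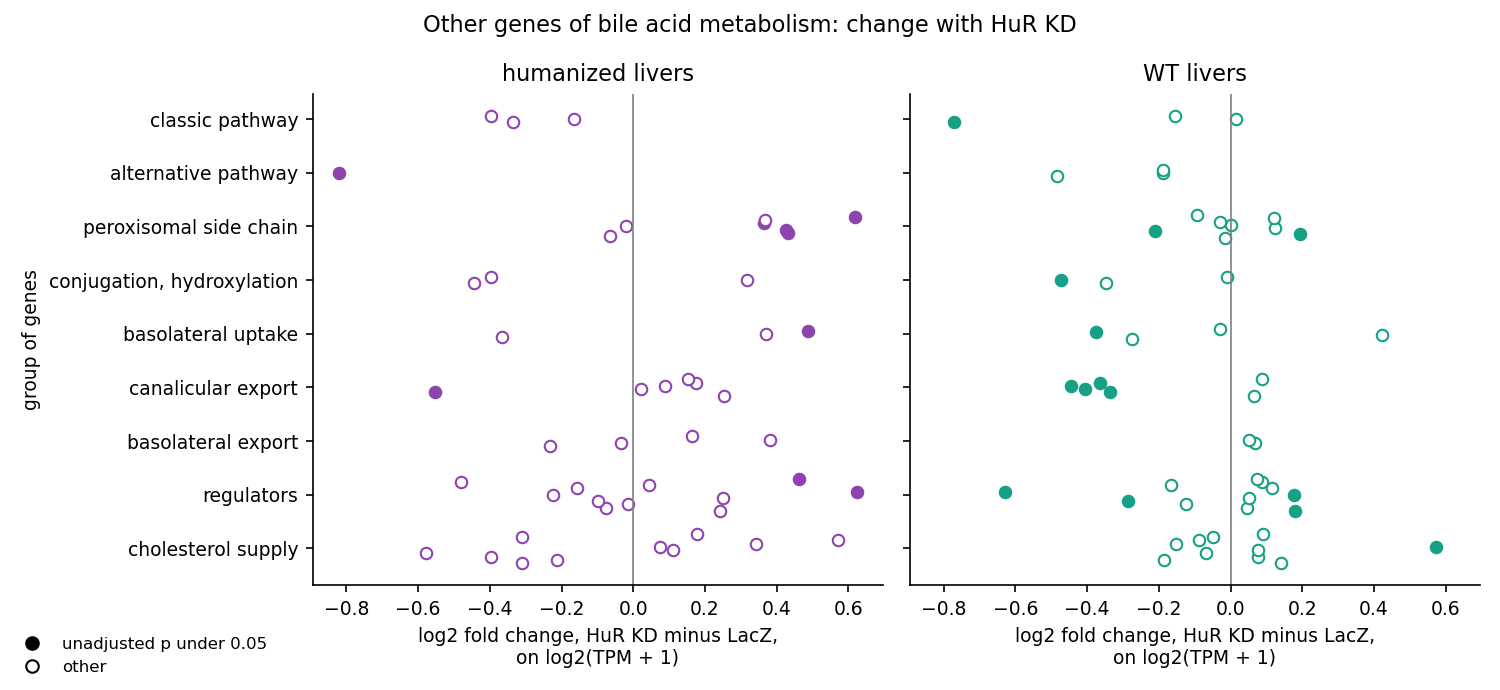
Log2 fold changes with HuR KD (HuR KD minus LacZ on log2(TPM + 1), limma) of the related genes tested, 48 in humanized livers (left) and 50 in WT livers (right), by role. Filled points mark an unadjusted p under 0.05: they lie to the right for 4 peroxisomal side-chain enzymes in humanized livers and to the left for 4 canalicular exporters in WT livers.

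Markers of other cell types moved with HuR KD in places. In humanized livers 3 of 5 cholangiocyte markers tested were called lower, where 7.87% of all genes were. The sum of all 7 was 12.6 to 35.3 TPM with HuR KD and 22.9 to 54.1 TPM with LacZ. The human macrophage markers added up to 6.58 to 67.4 TPM with HuR KD and 18.5 to 143 TPM with LacZ, nearly all of it LYZ, the 1 of 7 that passed the filter, with 3 of 7 listed at 0 in every library. Of the stellate markers, RELN was lower without overlap, at 0.501 to 1.22 against 1.48 to 4.12 TPM, as 1 of 2 tested among 6 listed. The other, ACTA2, went the other way and was not called, at 0.515 to 2.83 against 0.581 to 1.45 TPM (0.35). RELN alone does not stand for stellate cells. Groups did not overlap for 7.16% of the human genes tested. In WT livers 4 of 7 macrophage markers were called lower, where 6.94% of all genes were, with sums of 354 to 653 TPM with HuR KD and 459 to 635 TPM with LacZ. Hepatocyte markers added up to 97500 to 107000 TPM with HuR KD and 91900 to 108000 TPM with LacZ in WT livers, and 1 of 8, Hpx, was called lower. In humanized livers these markers added up to 48600 to 75400 TPM with HuR KD and 53300 to 97400 TPM with LacZ. There 1 of 8 had a positive log2 fold change, where 42.7% of all genes did. The median of the 8 was −0.19, and 0 were called. The part of other cells in the results above was not tested, and in bulk tissue fewer cells of a type and less RNA per cell cannot be told apart.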

How the data were processed

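Strand-specific total RNA libraries of 20 livers were sequenced by the authors, who trimmed the reads, used HISAT2 for alignment (humanized livers against both genomes at once) and featureCounts for counting, and deposited per-gene TPM, on GRCh38 and mm10. The TPM formula and gene lengths are not given in the sources used here.

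With limma 3.58.1 in R 4.3.3 (eBayes with trend), log2(TPM + 1) was compared in each set apart, keeping genes whose mean was 1 TPM or more. A gene was called at an unadjusted p under 0.05, the study's threshold, with Benjamini-Hochberg adjusted values beside it. Single members were compared by two-sided exact permutation (70 and 924 groupings). The scripts were tested on simulated data. Humanized and WT sets were fitted together for the interaction, over genes paired by symbol, with a variance per gene shared by both sets. Its p may be too small for genes that spread more in humanized livers. Alternatives changed the pseudocount, filter, scaling, variance model, block and livers kept.

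Read numbers were worked back from the TPM steps with Python 3.11.15, to within 0.001 of a read, for all 18702 human and 25110 mouse genes with values in 4 or more libraries. They set the precision of low levels.

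The members and gene lists were chosen with earlier results of these data known. The text names the 10 members, HuR, and from each related list and set up to 3 genes with the smallest limma p under 0.05, or else the 1 with the smallest p, with exceptions stated. The term for, and the removal of, humanized HuR KD 4 and LacZ 2, also in control levels, were chosen after seeing the data. Gene locations and 3′ UTRs came from GENCODE M21, and human genes were not located. Mouse genes of the humanized livers were not analysed here. Some results for related genes that the rule or lists cover are not reported here.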

Additional observations from a re-analysis of the deposited data

Results flagged for a closer look

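SLC27A5 responded differently in the 2 sets. Its log2 fold change with HuR KD in humanized livers exceeded that in WT livers by 1.14 (adjusted p = 0.00428 of the interaction, joint limma fit). That fit used a variance shared by both sets, so this p may be too small. In the humanized set 4 of 4 HuR KD livers lay above all LacZ livers, where groups did not overlap for 7.16% of the genes tested.

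Single livers lay far from the rest of their group by Dixon's criterion for 3 of the 40 groups of member values, where chance marks about 1 in 20. NR0B2 was at 64.3 TPM in humanized HuR KD 4, the only liver of its group above 14.6 TPM. In WT LacZ 2, the shallowest library with 1423985 reads, Baat was at 335 TPM and Nr1h4 at 117 TPM, each the lowest of its group.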

How the results depend on the processing

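Cyp8b1 and Cyp27a1 in WT livers and SLC27A5 in humanized livers kept their direction and their side of the unadjusted threshold under every alternative run. SLC27A5 passed adjustment with voom on recovered reads (adjusted p = 0.039) and without LacZ 2 (0.0327), Cyp8b1 with quantile normalization (0.0311), array weights (0.0223), voom (0.0289) and without LacZ 5 (0.0468), and Cyp27a1 with quantile normalization (0.0482), array weights (0.00772) and without HuR KD 6 (0.0327).

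The number of members called in humanized livers fell from 2 to 1 with median-of-ratios factors, quantile normalization and TPM rescaled over protein-coding genes, each by the loss of CYP7B1, and ranged from 1 to 3 with each liver left out. With adjusted p-values it was 0 in both sets. The called related genes in humanized livers went from 9 to 15 with a term for HuR KD 4 and LacZ 2, to 12 without these 2 livers, and ranged from 6 to 17 with each liver left out, highest without LacZ 2. Calls over all genes rose too, from 1461 of 12738 to 1920 of 12738 with the term and 2011 of 12826 without both livers. With each liver left out they ranged from 1098 of 12816 to 1958 of 12766, also highest without LacZ 2. Interactions called numbered 1, and 1 to 2 with each liver left out, the second being NR0B2 without humanized LacZ 2. The causes were not tested.

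Several uncalled members and Abcc3, a related exporter, turned sign with 1 liver left out. The ranges in humanized livers were −1.37 to 0.652 for CYP7A1, −0.26 to 0.827 for NR0B2, −0.0633 to 0.122 for NR1H4, −0.754 to 0.0995 for ABCB11 and −0.0615 to 0.291 for SLC10A1. In WT livers they were −0.147 to 0.0133 for Baat, −0.0671 to 0.0213 for Slc27a5, −0.0173 to 0.126 for Nr1h4, −0.135 to 0.0268 for Abcb11, −0.097 to 0.0554 for Slc10a1 and −0.00311 to 0.106 for Abcc3. For the interactions they were −0.194 to 0.0538 for CYP7B1, −0.282 to 0.0416 for CYP8B1 and −0.0731 to 0.133 for CYP27A1, which was −0.102 without both humanized livers. Slc27a5 was 0.00265 with quantile normalization and Abcb11 0.0313 with array weights.

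Over all genes, the median log2 fold change in humanized livers moved from −0.05 to 0.01 with median-of-ratios factors. Genes past adjustment ranged from 0 (replicate block, eBayes without trend, and 5 of the 8 livers left out in turn) to 172 (without LacZ 2) in humanized livers, where 27 passed, and from 17 (replicate block) to 1717 (array weights) in WT livers, where 134 passed. Array weights also raised the unadjusted calls in WT livers from 2418 to 4205. Interactions past adjustment went from 409 to between 282 and 832 with 1 liver left out, and to 965 without both humanized livers.

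The replicate numbers did not pair the livers, since same-numbered livers deviated together with correlations from −0.249 to 0.137 in humanized and −0.142 to 0.206 in WT livers. With the replicate number as a block, 2 members were called in humanized and 3 in WT livers, where Nr0b2 joined (−0.457, adjusted p = 0.293 in limma), and 8 and 13 related genes and 1 interaction were called. Over all genes, 1401 of 12738 and 2242 of 15090 were called with that block, and 1592 of 8192 interactions. At 11 to 101 reads in 6 humanized libraries, depth limits what NR0B2 can show.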
